A study of Mus musculus with 6 samples.

Results

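The 10 genes described here belong to the pathway of the coactivators YAP and TAZ, the TEAD transcription factors and the cofactor VGLL3. They were taken by name from the members of this pathway and found by NCBI Gene identifier among the 16315 genes of the deposited table. All 10 were found: the coactivator genes Yap1 and Wwtr1 (which encodes TAZ), the factor gene Tead1, the cofactor gene Vgll3, the regulators Ajuba, Lats2 and Amotl2, and the target genes Ankrd1, Ccn1 and Ccn2. Messenger RNA was measured in B16F10, a pigmented melanoma cell line from C57BL/6 mice, in 3 libraries of cells given the vehicle, 0.05% DMSO, and 3 libraries of cells given SAS, a compound the labels name by these letters alone, at a labelled 500 (unit written as μm) for 24 h. The series concerns the cystine transporter chain xCT, and no group carried a genetic change according to the labels. The table's columns call the vehicle libraries 0 h, while the protocol gives 24 h of incubation for both groups, so a day of culture and the compound cannot be told apart if 0 h means cells collected before incubation.

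YAP and TAZ do not bind DNA themselves; they enter the nucleus and act through TEAD factors, which recognise a short DNA motif. The LATS kinases of the Hippo pathway phosphorylate YAP and TAZ and thereby hold them in the cytoplasm, and cell contact, stretch and the actin cytoskeleton act on this step. VGLL proteins also bind TEAD factors, on a surface that YAP and TAZ use, and several direct targets of the pathway, such as LATS2 and AMOTL2, feed back on YAP. In melanoma cells the pathway is known for its links to invasive behaviour.

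The promoters are shown first because TEAD factors can bind there and because the pathway regulates some of its own components. Sites outside the promoter windows were not searched. RefSeq promoter entries (GRCm38.p6) matched 8 of the 10 genes. Tead1 and Ccn2 had no entry, so their promoters were not searched. The 250 bases upstream of each listed start were searched on both strands for the TEAD motif GGAATG, which reads CATTCC on the opposite strand, the AP-1 motif TGANTCA, the cyclic AMP response element TGACGTCA, the antioxidant response element TGACNNNGC and the CArG box bound by SRF. The AP-1, cyclic AMP and antioxidant motifs share letters, so 1 site can match more than 1 of them. The TEAD letters were found for 7 of these 8 genes, the exception being Lats2, against 3880 of 27025 genes with a promoter entry (14.4%). For single windows the shares were 12.6% for the TEAD motif, 6.75% for AP-1, 1.55% for the cyclic AMP element, 10.2% for the antioxidant element and 1.47% for the CArG box. In the windows of these 8 genes the antioxidant element was found for Ccn1 and Ankrd1 alone. No match to the AP-1 motif, the cyclic AMP element or the CArG box was found there. The genes are named for their part in this pathway, some of them as TEAD targets, so the count is a description and was not tested. A match is not evidence of binding.

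Windows of 250 bases are given for Vgll3 and Ajuba, which were lower with SAS, for Ccn1, which was higher, and for Ankrd1, which was barely detected. Capitals mark the matches, and each sequence is written 5′ to 3′ on the strand of the gene.
Vgll3, chr16:65814939-65815188, plus strand: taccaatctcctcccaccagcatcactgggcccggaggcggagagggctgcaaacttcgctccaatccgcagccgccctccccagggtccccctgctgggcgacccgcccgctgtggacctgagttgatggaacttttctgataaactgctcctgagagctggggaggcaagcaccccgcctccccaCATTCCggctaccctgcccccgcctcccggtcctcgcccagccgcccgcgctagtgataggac
Ajuba, chr14:54577662-54577911, minus strand: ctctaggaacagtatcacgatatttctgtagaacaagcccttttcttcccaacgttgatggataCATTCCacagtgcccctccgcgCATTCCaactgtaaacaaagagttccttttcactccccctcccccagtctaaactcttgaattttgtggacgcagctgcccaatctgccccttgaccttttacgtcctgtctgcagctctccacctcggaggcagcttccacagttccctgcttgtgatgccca
Ccn1, chr3:145649986-145650235, minus strand: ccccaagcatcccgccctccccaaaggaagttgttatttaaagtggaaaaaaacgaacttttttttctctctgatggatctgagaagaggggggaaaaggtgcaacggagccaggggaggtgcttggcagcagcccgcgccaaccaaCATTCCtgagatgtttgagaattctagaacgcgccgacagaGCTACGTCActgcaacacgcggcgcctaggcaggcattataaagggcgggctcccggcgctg
Ankrd1, chr19:36119845-36120094, minus strand: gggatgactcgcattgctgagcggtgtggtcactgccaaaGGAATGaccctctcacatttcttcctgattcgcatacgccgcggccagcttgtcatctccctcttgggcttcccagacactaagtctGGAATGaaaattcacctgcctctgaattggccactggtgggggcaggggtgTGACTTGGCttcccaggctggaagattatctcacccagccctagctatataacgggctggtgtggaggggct
The capitals in Vgll3 and Ajuba are TEAD letters alone. In Ccn1 the first match is the TEAD motif, 103 to 98 bases before the start, and the second the antioxidant element, 62 to 54 bases before it. Ankrd1 holds 2 TEAD matches followed by 1 antioxidant match. Of the other genes with the TEAD letters, the coactivator genes and Amotl2 are given by the match with 10 bases on either side.
Yap1, chr9:8004722-8004747, minus strand: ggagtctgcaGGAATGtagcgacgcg
Wwtr1, chr3:57576031-57576056, minus strand: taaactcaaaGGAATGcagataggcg
Amotl2, chr9:102717729-102717754, plus strand: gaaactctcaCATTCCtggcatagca
Of the 7 genes with the TEAD letters, Vgll3, Ajuba and Amotl2 were lower with SAS and Ccn1 was higher. Yap1 and Wwtr1 were not called, and Ankrd1 was at or near 0. The Amotl2 call was lost in 4 alternatives, given below. Of all genes tested, 37.4% were called, and a link between the letters and the calls was not tested.

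Across all genes, limma on log2(FPKM + 1) tested the 10615 genes whose mean reached 0.5 FPKM and called 3969 (37.4%) at a Benjamini-Hochberg adjusted p below 0.05, 18.9% higher and 18.5% lower with SAS. Of the 10 pathway genes 9 were tested, and 1 of them was higher and 4 were lower. These genes and the lists used below were chosen with earlier results of these data known. Their counts, set against the shares of all genes, are therefore descriptions and not tests. FPKM is scaled to transcript length and to the fragments of the library, so levels of different genes can be set side by side, and fold changes below are differences of log2(FPKM + 1), which understate low genes. Each library's FPKM summed to between 590238 and 617275, and the sequencing depth is unknown. The groups did not overlap for 6 of the 9, against 49.4% of all genes tested. In bulk RNA, fewer cells of a kind and less RNA per cell cannot be told apart. Melanocyte markers were abundant: all 8 were tested, and their summed level was 7464 to 8411 FPKM in vehicle and 8833 to 10732 FPKM with SAS, with 6 called higher and 0 lower by limma (also 0 lower at an unadjusted p below 0.05). The markers that rose most were Mc1r (log2 fold change 1.02), Tyr (0.73), Dct (0.48) and Sox10 (0.36). No marker of leukocytes, endothelium or keratinocytes with a row in the table exceeded 0.05 FPKM. Of the 4 fibroblast markers with a row, only Col1a2 was tested, and it fell from 0.747 to 0.397 FPKM (log2 fold change -0.32, and -0.77 with a pseudocount of 0.1). Col1a1 was at 0.31 and 0.353 FPKM, Pdgfra at 0.227 and 0.14 FPKM, and Lum at 0 in all vehicle libraries and at most 0.03 FPKM with SAS. The part of these shifts in the results below was not tested.

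**Figure D1:**
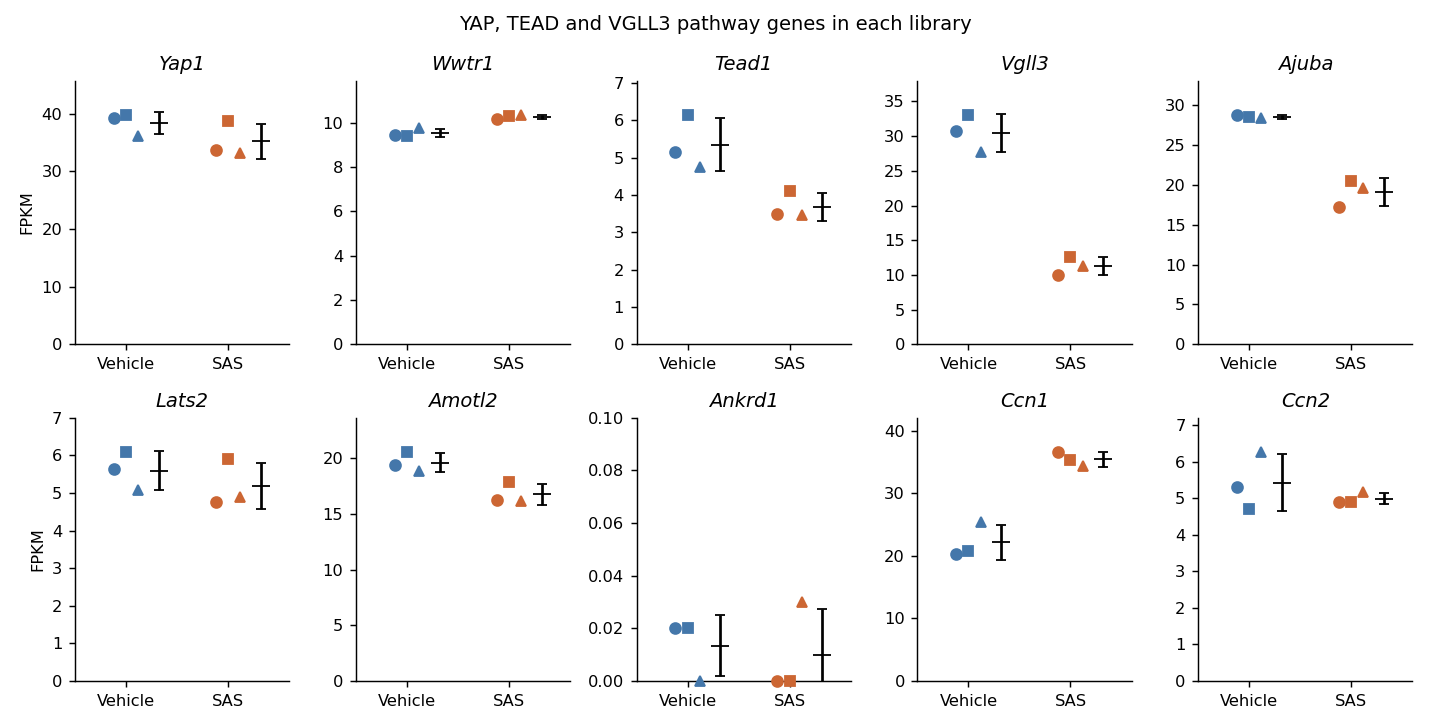
FPKM of the 10 pathway genes in each library; circles, squares and triangles are replicates 1, 2 and 3, and black bars give the mean ± SD (n = 3 per group). Each panel has its own axis from 0: Vgll3, Ajuba, Tead1 and Amotl2 lie lower in all SAS libraries, and Ankrd1 does not pass 0.03 FPKM. Ccn1 and Wwtr1 lie higher in all SAS libraries, Wwtr1 by a small difference that was not called.

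Neither coactivator gene passed the test. Yap1 (NCBI Gene 22601) was the most abundant of the 10 genes in vehicle, at 39.28, 39.7 and 36.15 FPKM, and stood at 33.73, 38.65 and 33.18 FPKM with SAS. The groups overlapped, because SAS replicate 2 lay within the vehicle range. The log2 fold change was -0.12 (95% interval -0.28 to 0.03) and did not pass the test (limma adjusted p = 0.182). It passed when SAS replicate 2 was left out (log2 fold change -0.19, limma adjusted p = 0.0481). Wwtr1 (NCBI Gene 97064) was at 9.47, 9.43 and 9.75 FPKM in vehicle and at 10.17, 10.31 and 10.34 FPKM with SAS. These groups did not overlap, but the difference was small (log2 fold change 0.10, 95% interval -0.04 to 0.23) and was not called (limma adjusted p = 0.236). Yap1 mRNA exceeded Wwtr1 mRNA 4.02 ± 0.274 times in vehicle and 3.42 ± 0.286 times with SAS (SD, n = 3, as throughout). Yap1 thus made up 80 ± 1.12% of their summed level in vehicle and 77.3 ± 1.42% with SAS, and SAS replicate 2 again overlapped the vehicle libraries.

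Of the TEAD genes, which encode the DNA-binding partners, 3 of 4 were lower and 1 was higher. Among all genes tested, 18.5% were lower and 18.9% higher. Tead1 (NCBI Gene 21676) was at 5.14, 6.13 and 4.75 FPKM in vehicle and 3.48, 4.11 and 3.46 FPKM with SAS. All SAS libraries lay below all vehicle libraries (log2 fold change -0.43, SE 0.09, limma adjusted p = 0.00393). Tead2 was the dominant family member, with 63.44, 67.77 and 61.22 FPKM in vehicle against 38.53, 39.96 and 38.45 FPKM with SAS. That decrease was among the larger ones of the pathway (log2 fold change -0.70, SE 0.06, limma adjusted p = 8.87e-06). Tead3 fell from 5.78 ± 0.39 to 4.78 ± 0.452 FPKM (log2 fold change -0.23, limma adjusted p = 0.0405). Tead4 rose from 7.48 ± 0.355 to 9.23 ± 0.721 FPKM (log2 fold change 0.27, limma adjusted p = 0.0144). The Tead3 call was lost without Vehicle replicate 1 or 2 (limma adjusted p = 0.156 and 0.093), without SAS replicate 1 or 2 (limma adjusted p = 0.124 and 0.0625), without a filter on low values (0.0921) and after rescaling every library to 1 common sum (0.0669). The Tead4 call was lost without SAS replicate 2 (limma adjusted p = 0.054).

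Summed over the 4 TEAD genes, the level fell from 82.7 ± 4.48 to 56.7 ± 2.06 FPKM, with no overlap between groups. Tead2 took 77.5 ± 0.548% of that sum in vehicle and 68.8 ± 1.05% with SAS, and the share of Tead4 went from 9.04 ± 0.259% to 16.3 ± 0.713%. The share of Tead1 was 6.44 ± 0.51% and 6.49 ± 0.413%, with overlapping groups. An exact two-sided permutation test gave p = 0.1 for the Tead2 and Tead4 shares, the smallest value that 3 against 3 libraries allow (adjusted p = 0.189 over the 17 family shares tested, of which 9 reached that smallest value), and p = 0.8 for Tead1. Shares within a family are bound to each other, so a fall of the dominant gene raises the others.

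Vgll3 (NCBI Gene 73569), a cofactor that binds TEAD factors, showed the largest change among the 9 tested. It was at 30.74, 33.0 and 27.66 FPKM in vehicle and at 9.95, 12.56 and 11.3 FPKM with SAS. The highest SAS library was far below the lowest vehicle library, and the SAS mean was 37% of the vehicle mean. The log2 fold change was -1.36 (SE 0.09, limma adjusted p = 2.14e-06). It ranked 3rd lowest of the 10615 genes tested, on the log2(FPKM + 1) scale, which understates low genes. Vgll4, the family member known to restrain YAP, stood at 32.2 ± 1.62 and 32.8 ± 2.67 FPKM (log2 fold change 0.02, 95% interval -0.13 to 0.18, limma adjusted p = 0.807). That small Vgll4 value turned negative when Vehicle replicate 1 (-0.02) or SAS replicate 2 (-0.04) was left out. Vgll3 and Vgll4 were present at similar levels in vehicle, with a ratio of 0.948 ± 0.0984, and at 0.343 ± 0.0163 with SAS. Measured against Yap1, Vgll3 mRNA went from a ratio of 0.793 ± 0.0343 to 0.32 ± 0.0232. The Vgll3 share of both VGLL genes was 48.6 ± 2.67% in vehicle and 25.5 ± 0.91% with SAS (exact permutation p = 0.1, the smallest possible, adjusted p = 0.189).

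The genes whose profile over the 6 libraries lay closest to that of Vgll3 were sought among the 6986 other genes whose mean reached 5 FPKM. The measure was the root mean square difference of log2(FPKM + 1), each gene taken relative to its own vehicle mean. Prkcq, which encodes a protein kinase C, was nearest at 0.045, with 24.16, 27.94 and 23.04 FPKM in vehicle and 8.11, 9.65 and 8.97 FPKM with SAS. In both genes replicate 2 was the highest library of its group. The nuclear receptor gene Nr2f2 followed at 0.217 and the imprinted gene Mest at 0.224. For Yap1, the nearest were the deubiquitinase gene Otud7b at 0.009, the nucleic acid binding protein gene Fubp3 at 0.011 and the kinase gene Pak2 at 0.020. Yap1 and these 3 genes share low values in SAS replicates 1 and 3, and none of the 4 passed the test. All these neighbours were picked for their likeness over the same 6 libraries. Highs and lows shared with Vgll3 or Yap1 therefore follow from the search.

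Among genes that restrain YAP, Amotl2 was lower and Lats2 did not pass the test. Lats2 (NCBI Gene 50523), one of the kinases that phosphorylate YAP and TAZ, was at 5.63, 6.09 and 5.07 FPKM in vehicle and 4.77, 5.9 and 4.9 FPKM with SAS. The groups overlapped, and the log2 fold change of -0.09 (95% interval -0.29 to 0.10) was not called (limma adjusted p = 0.432). Its paralog Lats1 was at 4.13 ± 0.271 and 3.93 ± 0.298 FPKM (log2 fold change -0.06, limma adjusted p = 0.568). Lats2 made up 57.5 ± 2.3% of both kinases in vehicle and 56.8 ± 2.22% with SAS. Amotl2 (NCBI Gene 56332), a junction protein that binds YAP and helps activate LATS, was at 19.35, 20.55 and 18.88 FPKM in vehicle and at 16.29, 17.85 and 16.13 FPKM with SAS. Every SAS library was below every vehicle library (log2 fold change -0.21, SE 0.06, limma adjusted p = 0.0224). This call did not hold without Vehicle replicate 1 or 2 (limma adjusted p = 0.0616 and 0.0915) or without SAS replicate 1 or 3 (0.0527 and 0.0769). Its relative Amotl1 was at 11.8 ± 1.38 and 10.5 ± 0.65 FPKM (log2 fold change -0.15, limma adjusted p = 0.194) and was called lower without Vehicle replicate 3 (limma adjusted p = 0.0322). Amotl2 took 61.5 ± 2.21% and 60.6 ± 0.241% of the summed angiomotin level.

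Ajuba (NCBI Gene 16475), a LIM domain protein that binds LATS kinases and lowers their action on YAP, fell. It was at 28.72, 28.47 and 28.33 FPKM in vehicle, a narrow range, and at 17.18, 20.49 and 19.59 FPKM with SAS. The SAS mean was 67% of the vehicle mean (log2 fold change -0.56, SE 0.07, limma adjusted p = 0.000144). Wtip, which encodes a related LIM protein, was the most abundant of the family and fell from 53.6 ± 0.611 to 40.3 ± 2.42 FPKM (log2 fold change -0.41, limma adjusted p = 0.000371). Limd1, the remaining member, stood at 16 ± 0.512 and 16 ± 1.09 FPKM (log2 fold change -0.01, 95% interval -0.15 to 0.14). It turned positive when Vehicle replicate 2 (0.01) or SAS replicate 1 (0.04) was left out. The summed level of the family went from 98.2 ± 0.199 to 75.3 ± 1.32 FPKM. Ajuba took 29 ± 0.153% of the sum in vehicle and 25.3 ± 2.06% with SAS, while the share of Limd1 went from 16.3 ± 0.525% to 21.2 ± 1.4% (exact permutation p = 0.1 for both, the smallest possible, adjusted p = 0.189).

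**Figure D2:**
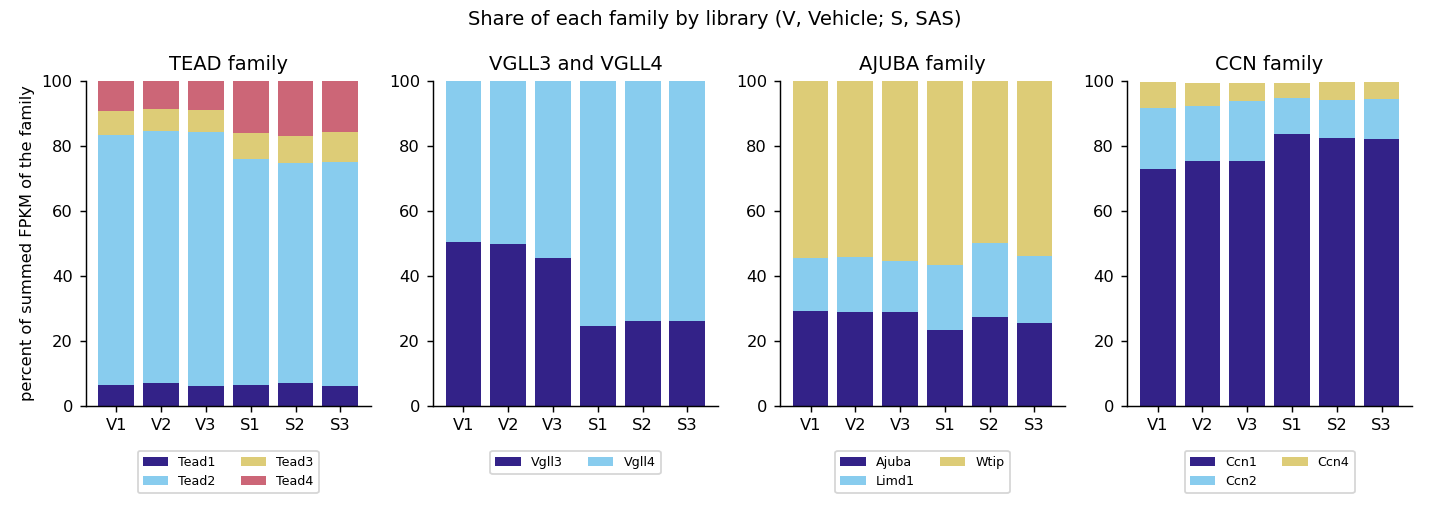
Percent of the summed FPKM of the TEAD, VGLL, AJUBA and CCN families taken by each gene, 1 bar per library (V1 to V3 Vehicle, S1 to S3 SAS); genes with a mean under 0.5 FPKM are not drawn. The Vgll3 part is 45.5 to 50.3% in vehicle and 24.5 to 26.1% with SAS, Tead4 takes a larger part with SAS, and Ccn1 goes from 72.8 to 75.3% up to 82.2 to 83.7%.

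Of the 3 classical target genes, Ccn1 rose, Ccn2 did not pass the test and Ankrd1 was at or near 0. Ccn1 (NCBI Gene 16007), which encodes the secreted matrix protein CYR61, was at 20.36, 20.86 and 25.39 FPKM in vehicle and at 36.63, 35.34 and 34.35 FPKM with SAS. It was higher in every SAS library, and the SAS mean was 1.6 times the vehicle mean (log2 fold change 0.66, SE 0.08, limma adjusted p = 0.000126). Ccn2 (NCBI Gene 14219), which encodes the related protein CTGF, was at 5.31, 4.7 and 6.26 FPKM in vehicle and 4.89, 4.9 and 5.16 FPKM with SAS. The SAS values lay inside the vehicle range, and the log2 fold change of -0.10 (95% interval -0.29 to 0.10) was not called (limma adjusted p = 0.422). Ankrd1 (NCBI Gene 107765), a muscle ankyrin repeat protein that is often used as a readout of YAP, was listed at 0.02, 0.02 and 0 FPKM in vehicle and at 0, 0 and 0.03 FPKM with SAS. It was too low to be tested, and no fold is given.

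The Ccn1 to Ccn2 ratio in single libraries was 3.83, 4.44 and 4.06 in vehicle and 7.49, 7.21 and 6.66 with SAS, without overlap. The summed level of the CCN family rose from 29.8 ± 3.38 to 42.8 ± 0.98 FPKM, and Ccn1 was its only member called. Ccn1 took 74.5 ± 1.46% of the sum in vehicle and 82.9 ± 0.791% with SAS (exact permutation p = 0.1, the smallest possible, adjusted p = 0.189). Of the other members Ccn4 was at 2.02 ± 0.154 and 2.17 ± 0.155 FPKM (log2 fold change 0.07, limma adjusted p = 0.459), and Ccn3, Ccn5 and Ccn6 did not exceed 0.16 FPKM in any library. Of the relatives of Ankrd1, Ankrd2 was at 9.65 ± 1.06 and 9.37 ± 0.476 FPKM (log2 fold change -0.03) and Ankrd23 at 1.6 ± 0.231 and 1.58 ± 0.222 FPKM (log2 fold change -0.01), and neither was called. Ankrd2 turned positive when Vehicle replicate 1 (0.04) or SAS replicate 3 (0.00) was left out, and Ankrd23 when Vehicle replicate 3 (0.06), SAS replicate 1 (0.04) or SAS replicate 2 (0.01) was, or with array weights (0.07).

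Set in order of level, Yap1 led in vehicle, followed by Vgll3 and Ajuba, whose ranges overlapped, then Ccn1 and Amotl2, which also overlapped, then Wwtr1. Lats2, Ccn2 and Tead1 shared a range of 4.7 to 6.26 FPKM, and Ankrd1 was last. With SAS, Ccn1 (35.4 ± 1.14 FPKM) and Yap1 (35.2 ± 3.01 FPKM) overlapped at the top, followed by Ajuba and Amotl2, again overlapping. Vgll3 (11.3 ± 1.31 FPKM) had dropped to the level of Wwtr1 (10.3 ± 0.0907 FPKM). Lats2 and Ccn2 overlapped, and Tead1 stood below both. Of the SAS libraries, replicate 2 held the highest value of 6 of the 9 genes tested, and of the vehicle libraries, replicate 2 that of 5. This was not counted over all genes, so a trait of the pathway genes cannot be told from a trait of these libraries.

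In a wider list of the transcription factors and cofactors of the pathway, 1 of 8 tested genes was higher and 4 were lower, against 18.9% and 18.5% of all genes tested; without SAS replicate 2 the count of higher genes was 0. In the list of the Hippo kinase core and its upstream regulators, 29 genes in all, 2 of 26 tested genes were higher and 11 lower, against 18.9% higher and 18.5% lower of all genes tested, and the median log2 fold change was -0.16 against -0.01. Besides Ajuba and Wtip, described above, the largest called decreases were those of Wwc1, Strn3 and Map4k4. Wwc1, which encodes the LATS-activating scaffold KIBRA, was at 10.73, 11.27 and 10.13 FPKM in vehicle and 5.11, 6.95 and 5.59 FPKM with SAS (log2 fold change -0.77, SE 0.09, limma adjusted p = 0.000136). Strn3, a scaffold of a phosphatase complex acting on Hippo kinases, fell from 5.1 ± 0.25 to 3.89 ± 0.171 FPKM. Map4k4, a kinase that can activate LATS, fell from 34.3 ± 2.85 to 27.4 ± 1.53 FPKM. The core kinase genes Stk3 and Stk4 and the adaptor Sav1 were chosen after their values were seen. Stk3 (log2 fold change -0.23, limma adjusted p = 0.0353) and Sav1 (-0.23, limma adjusted p = 0.0191) were lower, while Stk4 was not called (0.07, limma adjusted p = 0.427). The Stk3 call was lost without a filter and without any library other than SAS replicate 1 (limma adjusted p = 0.0512 to 0.146), and that of Sav1 without Vehicle replicate 1 or SAS replicate 1 (0.0667 and 0.055).

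The 2 genes of that list called higher, also named after their values were seen, were the kinase gene Taok3 (log2 fold change 0.23, limma adjusted p = 0.0279) and Ptpn14 (0.29, limma adjusted p = 0.028), a phosphatase that binds YAP. Taok3 lost its call without Vehicle replicate 1 or 3 or SAS replicate 2 or 3 (limma adjusted p = 0.0972, 0.0703, 0.0957 and 0.0561). Ptpn14 lost it without Vehicle replicate 1 or 3 or SAS replicate 1 or 2 (limma adjusted p = 0.0509, 0.0967, 0.0656 and 0.0994). The count of genes lower in the list was 5 without Vehicle replicate 1, 7 without Vehicle replicate 2 and 6 without SAS replicate 1 or SAS replicate 3. The count of genes higher was 0 without Vehicle replicate 1, Vehicle replicate 3 or SAS replicate 2, and 1 without SAS replicate 1 or SAS replicate 3. Among all genes tested, the counts called higher and lower also fell whenever any 1 library was left out. Whether this list lost more of its calls than all genes did was not tested.

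A published set of 22 YAP and TAZ target genes, which includes Ccn1, Ccn2, Ankrd1, Amotl2 and Lats2, moved in both directions. Of its genes 19 had a row and 16 passed the filter on low values, and of these 4 were higher and 6 lower, against 18.9% and 18.5% of all genes tested. Their median log2 fold change was -0.13, against -0.01 for all genes. Besides Ccn1, the receptor tyrosine kinase gene Axl rose from 6.56 ± 0.27 to 10.1 ± 0.663 FPKM (log2 fold change 0.55, limma adjusted p = 0.000181). The tissue factor gene F3 was at 6.32, 6.57 and 6.88 FPKM in vehicle and 9.48, 10.73 and 10.1 FPKM with SAS (log2 fold change 0.55, limma adjusted p = 0.000177). Ptpn14 was the remaining gene called higher. In the other direction, the matrix protein gene Ccdc80 fell from 1.13 ± 0.168 to 0.41 ± 0.0173 FPKM (log2 fold change -0.59, limma adjusted p = 0.000119; -1.26 with a pseudocount of 0.1 in place of 1). Arhgef17 was at 8.27, 8.81 and 8.18 FPKM in vehicle and 5.71, 6.16 and 5.84 FPKM with SAS (log2 fold change -0.45, limma adjusted p = 0.000478). The other genes called lower, named after their values were seen, were Amotl2, Crim1 (log2 fold change -0.43), Tgfb2 (-0.43, and -0.73 with a pseudocount of 0.1) and Gadd45a (-0.39).

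Ccn1, Ccn2 and Ankrd1 are also known targets of SRF and its actin-sensing MRTF coactivators. Of 13 tested genes linked to SRF and actin, 0 were higher (also 0 at an unadjusted p below 0.05) and 6 lower by limma, against 18.9% and 18.5% of all genes tested. Their median log2 fold change was -0.17, against -0.01 for all genes. The tropomyosin gene Tpm1 fell from 476 ± 22.7 to 300 ± 18.6 FPKM (log2 fold change -0.67, limma adjusted p = 2.50e-05). The focal adhesion gene Zyx fell from 140 ± 6.72 to 103 ± 4.62 FPKM, the calponin gene Cnn2 from 58.6 ± 0.797 to 46.2 ± 3.67 FPKM and Tpm4 from 51.2 ± 2.74 to 43.5 ± 0.654 FPKM. The count of SRF and actin genes lower was 4 without Vehicle replicate 1, Vehicle replicate 2 or SAS replicate 3. The count of all genes called lower fell in these fits too. Ccn1 thus moved against the direction of the called genes of this list, while 7 of its genes were not called. The part of SRF in the Ccn1 change was not tested.

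**Figure D3:**
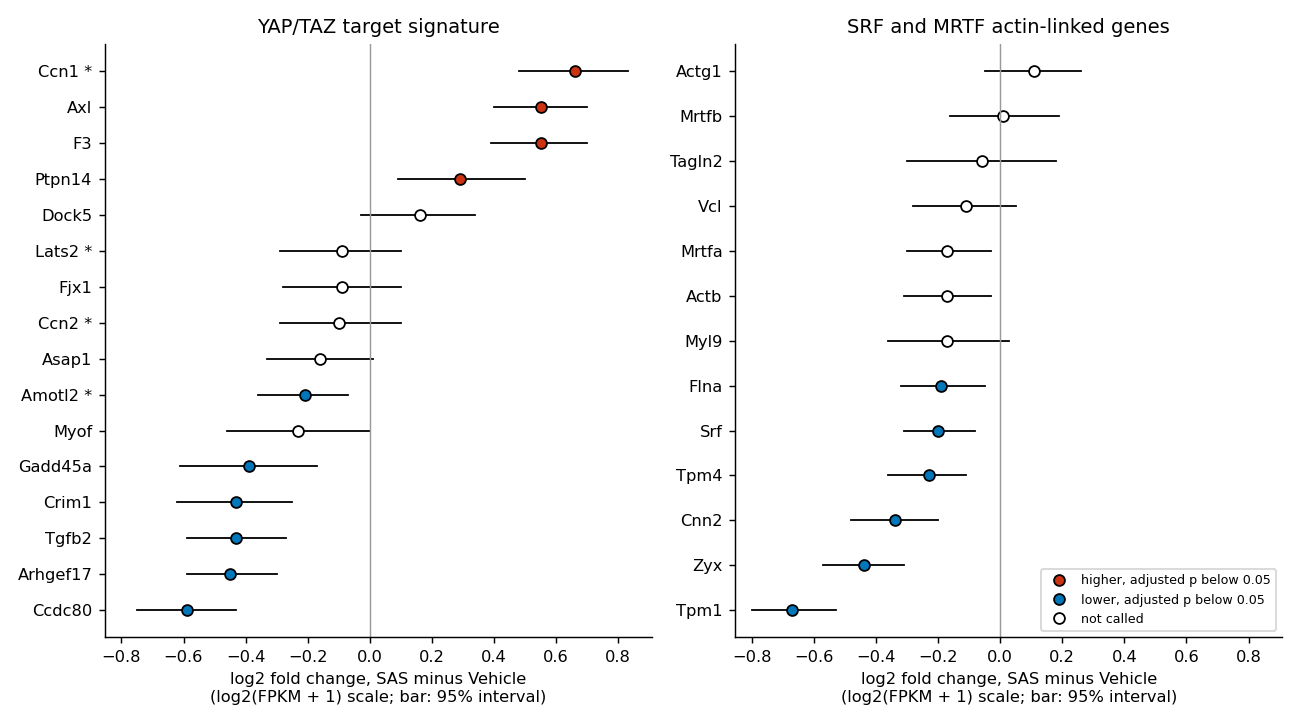
Log2 fold change (SAS minus Vehicle, log2(FPKM + 1) scale, bars: 95% interval) of tested YAP and TAZ target genes (left) and of genes linked to SRF and actin (right), sorted by value and coloured by call; asterisks mark the genes among the 10. Targets spread from Ccdc80 (-0.59) to Ccn1 (0.66), and no SRF or actin gene is called higher.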

How the data were processed

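The authors deposited 1 table of FPKM values with 2 decimals and 1 column per library, per the file headers; libraries followed BGISEQ-500 protocols, per the labels' protocols. FastQC, HISAT and Bowtie2 are named without roles, per the submitters' processing notes, with the program, build and annotation behind FPKM not given in the sources used here. Columns named 24 h were taken as SAS and those named 0 h, by elimination, as vehicle. The labels name no separate cultures, so p-values reflect only how these libraries vary, possibly for technical reasons.

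Of 16315 identifiers, 16206 (99.3%) matched a RefSeq symbol (GRCm38.p6). Depth is unknown: of 20 low genes, 2 moved in whole steps (tolerance 0.15). The pathway genes and lists were chosen with earlier results of these data known. Genes whose mean reached 0.5 FPKM were tested on log2(FPKM + 1) with limma 3.58.1 (eBayes, intensity trend; R 4.3.3), checked on simulated data. The text names all 10 genes and their families, up to 4 called genes per list with the largest absolute log2 fold change, the 3 nearest profiles, and others where said. Family shares and exact tests used scipy 1.17.1 in Python 3.11.15, and plots matplotlib 3.10.9. Alternatives changed pseudocount, filter, scaling, variance model, replicate block and the libraries left out.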

Additional observations from a re-analysis of the deposited data

How the results depend on the processing

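Of the 9 tested pathway genes, Vgll3, Ajuba, Tead1 and Ccn1 kept direction and call in every alternative that tested them, with log2 fold changes of -1.44 to -1.28, -0.61 to -0.49, -0.52 to -0.35 and 0.6 to 0.75. Leaving out 1 library gave 3 to 5 pathway genes lower and 1 higher. Over 152 combinations of pathway gene and alternative, 147 kept direction and call, 4 lost the call (Amotl2) and 1 gained it (Yap1). Leaving out 1 library gave 5 to 11 lower and 0 to 2 higher genes in the Hippo list and 0 to 1 higher among transcription factors and cofactors. Without a filter on low values, the Hippo list had 7 lower and 0 higher genes. At a mean of at least 5 FPKM, 3 target genes were called lower, fewer being tested. Quantile normalization made 1 SRF and actin gene higher. Small uncalled values changed sign when 1 library was left out: Limd1 (-0.06 to 0.04), Vgll4 (-0.04 to 0.07), Ankrd2 (-0.11 to 0.04) and Ankrd23 (-0.08 to 0.06), the last also with array weights (0.07). The cause was not tested. Same-numbered libraries did not deviate together in all pairs (correlations -0.08, 0.145 and 0.234), so numbers were not read as pairs; with a replicate block 4 pathway genes were lower and 1 higher, and 2158 and 2187 of all genes. Depth is unknown, so Ankrd1 cannot be told from 0.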
